A study of Mus musculus with 13 samples.

Results

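Injured mouse hearts that had received an editing system for CaMKIIδ were compared with injured hearts that had received no injection, over all genes measured. The libraries were chosen by their titles, which gave 4 IR edit hearts and 3 IR hearts, 7 of the 13 libraries of the series. IR stands for ischaemia and reperfusion, in which blood flow to part of the heart muscle is stopped and then restored. All 13 mice were male, wild-type (WT) C57Bl6 animals aged 17 weeks at harvest and were treated at 12 weeks, which leaves 5 weeks between treatment and harvest. The IR edit mice had the injury and an injection of the functional editing system, and the IR mice had the injury alone. For orientation, levels are also given for 3 IR virus hearts, which had the injury and an injected control virus, and for 3 Sham hearts, which had sham surgery and no injection. The groups IR edit and IR differ in the injection, in what was injected and in the editing of the kinase gene, and these cannot be told apart in this comparison. The labels do not name the virus, the promoter, the dose or the route, and give neither a batch nor the time of day of harvest. RNA came from whole hearts, so each value is an average over muscle, vessel, connective tissue and blood cells.

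CaMKIIδ is the main heart isoform of the calcium/calmodulin-dependent protein kinase II, which phosphorylates calcium channels, transcriptional regulators and many other proteins of the heart muscle cell. Oxidation of a pair of neighbouring methionines in its regulatory segment can keep the kinase active after calcium has fallen, and base editing rewrites single bases of a gene without cutting both DNA strands. Many of the genes that differed below belong to the daily clock, a feedback loop in which Arntl with Clock or Npas2 activates the Per, Cry and Nr1d genes, whose products then shut the loop down, or to the early-response genes, which are transcribed within minutes of a hormonal, mechanical or stress signal and need no new protein for it.

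Total counts per library were 20634820 to 25555144 in IR edit hearts and 22860006 to 23426329 in IR hearts. Of the 53278 gene symbols in the files, 15690 passed the filter on low counts and were tested. The IR edit hearts were spread out: on the first principal component of all 13 libraries, which held 27.5% of the variance, replicates 1 to 4 lay at 10.2, 34.0, -2.80 and 45.1, while the IR hearts lay at -1.46, -1.21 and -9.17. IR replicates 1 and 2 were unusually close to each other, with 13% of 11665 well-counted genes differing beyond sampling noise (5% would by sampling alone), against 22.8% to 48.6% in the 14 other pairs of hearts from one group. IR virus replicate 3 was almost as close to them, with 14.5% of genes differing from IR replicate 2 and 16.9% from IR replicate 1. They were kept as 2 hearts, and results are also given with their counts summed as 1 library and without IR edit replicates 2 and 4. The labels do not say more on how replicates were obtained. The p-values set each difference against a spread between hearts estimated over all 13 libraries, which may be partly technical. Mitochondrially encoded transcripts held 32.8% ± 3.23 of counts in IR edit hearts (SD, n = 4) and 34.9% ± 0.669 in IR hearts (SD, n = 3), a difference below the spread (two-sided exact permutation test, p = 0.343, where the smallest possible p is 0.029). The 15 markers of ventricular heart muscle summed to between 53674 and 60952 CPM (counts scaled to a common library total) in IR edit hearts and between 54644 and 57004 CPM in IR hearts, with reads of each marker in each heart.

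Camk2d, the gene of the targeted kinase, is a plus-strand gene of chromosome 3 (mm10, 126596302 to 126846326). It was at 210, 225, 248 and 211 CPM in IR edit replicates 1 to 4 and at 235, 245 and 243 CPM in IR replicates 1 to 3. The ranges overlapped, and the log2 fold change of -0.11 ± 0.106 (SE) did not pass (adjusted p = 0.696 from edgeR's quasi-likelihood test). The coding sequence around its only in-frame pair of neighbouring methionine codons, codons 281 and 282 of transcript Camk2d-228 in the GENCODE M21 annotation, is shown because it holds the residues whose oxidation the study's title names. The pair lies at chr3:126797723-126797728 in exon 11 and is in capitals, and the 78 bases run from exon 10 into exon 11 without the intron.
Camk2d codons around 281 and 282: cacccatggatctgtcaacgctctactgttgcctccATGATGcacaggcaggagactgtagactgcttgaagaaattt
Gene counts do not show whether these bases were edited. Of the 15 tested CaM kinase and calmodulin genes, 1 passed, where 1.42% of all genes tested passed in this comparison (0.784% higher and 0.637% lower in IR edit). It was Camk2n1, an endogenous protein inhibitor of the kinase, at 36.1, 40.6, 34.3 and 44.6 CPM in IR edit hearts and 26.8, 23.5 and 26.7 CPM in IR hearts, a log2 fold change of 0.60 ± 0.0973 (adjusted p = 0.00592). Each IR edit heart was above each IR heart. The call was lost without IR replicate 2 (adjusted p = 0.0537) and without IR edit replicates 2 and 4 together (adjusted p = 0.0599). In the IR virus hearts Camk2n1 was at 25.4, 24.9 and 28.5 CPM.

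Over all genes, 223 of 15690 passed at an adjusted p of 0.05 or less, 123 of them higher and 100 lower in IR edit hearts, and 95 of these differed at least 2-fold (59 higher, 36 lower). In 218 of the 223 the IR edit and IR hearts did not overlap, which held for 12.8% of all genes tested. Lack of overlap in a called gene below describes its hearts and adds no support to its call. The 10 largest increases and 10 largest decreases named below were chosen among genes without overlap. Before adjustment, 2272 genes (14.5%) had a p under 0.05. Other tools called more genes, 443 of 15686 in DESeq2 and 1705 of 15690 in limma with sample weights. These weights were 1.77, 2.17 and 0.613 for IR replicates 1 to 3 and 0.675, 2.07, 0.475 and 0.909 for IR edit replicates 1 to 4. The limma counts here and below thus lean on IR replicates 1 and 2, the unusually close pair, and on IR edit replicate 2. Counts of list members by these measures, given below, are to be read beside these shares. The lists and their members were chosen with earlier results of these data known. Their shares therefore describe the lists and are not a test of enrichment. The median log2 fold change over all genes tested was -0.00222. The count fell to 67 without IR replicate 1, 59 without IR replicate 2, 75 with those hearts summed, 129 without IR edit replicate 2, 127 without replicate 4 and 78 without both, and it was 489 without IR edit replicate 3.

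**Figure D1:**
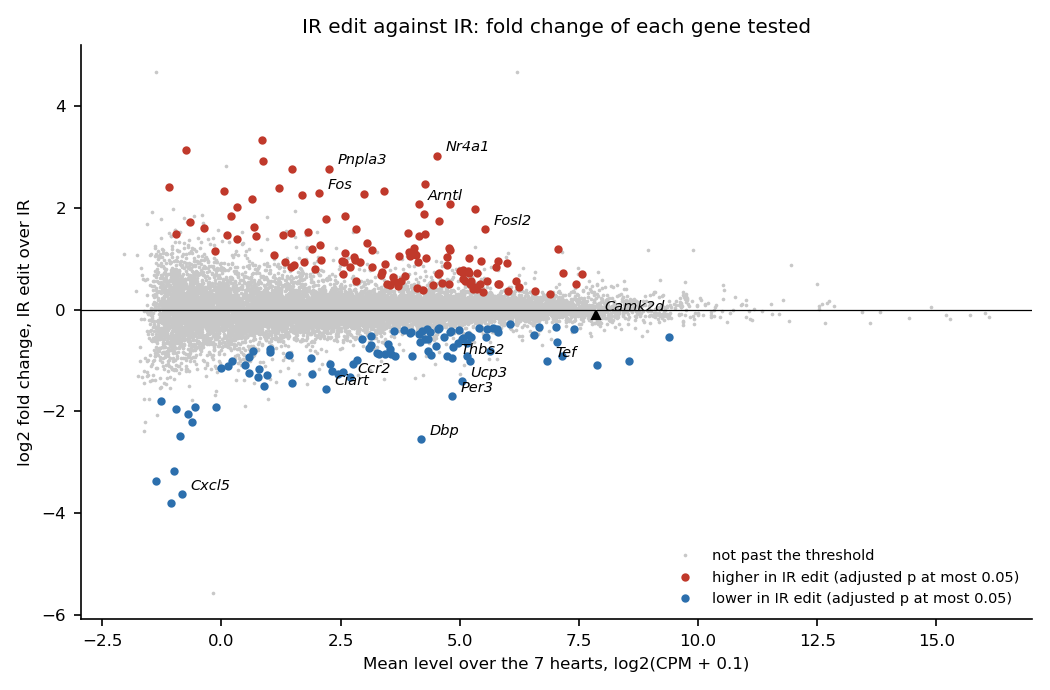
Log2 fold change of IR edit over IR (vertical axis) against the mean level over the 7 hearts, log2(CPM + 0.1), for the 15690 genes tested; red and blue points passed higher and lower in IR edit, grey points did not pass. Calls lie on both sides of 0, among them Nr4a1 at 3.03, Pnpla3 at 2.77, Dbp at -2.55 and Cxcl5 at -3.63. Camk2d, the black triangle, lies at -0.11.

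Many early-response genes were higher in IR edit hearts. Of 25 tested members of this list, 11 rose and 0 fell (44% against 1.42% of all genes), and the median log2 fold change of the list was 0.83, against -0.00222 over all genes. As the list was chosen with earlier results of these data known, this contrast is descriptive. Nr4a1, an orphan nuclear receptor, had the smallest p of the list. It was at 31.2, 24.3, 38.4 and 53.04 CPM in IR edit replicates 1 to 4 and at 3.03, 4.35 and 6.11 CPM in IR replicates 1 to 3. Each IR edit heart was well above all IR hearts, and the 8.17-fold difference (log2 fold change 3.03 ± 0.257) passed at an adjusted p of 2.28e-05. Its relative Nr4a3 was at 9.53, 9.68, 18.3 and 27.1 CPM in IR edit hearts and 2.16, 2.004 and 5.42 CPM in IR hearts, with replicates 3 and 4 the highest of the IR edit hearts and no overlap (log2 fold change 2.34 ± 0.3902, adjusted p = 0.00674). Nr4a1 lies on chromosome 15 from 101254269 to 101274795.

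The subunits of AP-1, the transcription factor built of Fos and Jun proteins, followed. Fos was at 5.27, 3.58, 4.55 and 11.045 CPM in IR edit hearts and 1.26, 1.41 and 1.08 CPM in IR hearts, a log2 fold change of 2.29 ± 0.353 (adjusted p = 0.00421). Fosl2, a relative of Fos, was at 53.2, 52.2, 63.7 and 89.0 CPM in IR edit hearts and 20.3, 20.3 and 24.1 CPM in IR hearts (log2 fold change 1.58 ± 0.153, adjusted p = 7.62e-05). IR edit replicate 4 was the highest heart for both genes, and in neither did the groups overlap. Jun was at 39.7, 44.9, 40.3 and 71.8 CPM in IR edit hearts and 31.1, 31.7 and 27.2 CPM in IR hearts, where replicate 4 again stood far above the others (log2 fold change 0.71 ± 0.166, adjusted p = 0.0479). Atf3, a stress-induced factor of the same leucine-zipper class, was at 6.83, 6.90, 10.7 and 23.4 CPM in IR edit hearts and 2.34, 2.39 and 2.69 CPM in IR hearts (log2 fold change 2.27 ± 0.380, adjusted p = 0.00674). Its lowest IR edit heart was still above every IR heart. Egr1 and Junb, classical early genes named here after their values were seen, did not pass, with log2 fold changes of 0.35 (adjusted p = 0.512) and 0.61 (adjusted p = 0.266).

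Zinc-finger factors of the Krüppel-like family rose as well. Klf4 was at 39.5, 42.4, 52.99 and 52.3 CPM in IR edit hearts and 22.6, 23.3 and 23.7 CPM in IR hearts (log2 fold change 1.01 ± 0.107, adjusted p = 0.000134). Klf2, known in endothelial cells as a flow-responsive factor, was at 34.8, 30.7, 34.0 and 36.3 CPM in IR edit hearts and 15.1, 15.2 and 19.3 CPM in IR hearts (log2 fold change 1.04 ± 0.195, adjusted p = 0.0136). Neither gene overlapped between the groups, and the IR edit hearts lay close together. Klf6 rose by 0.36 ± 0.0709 on the log2 scale (adjusted p = 0.0199) and Csrnp1, a nuclear protein of early responses, by 1.03 ± 0.239 (adjusted p = 0.0475). Dusp1, a phosphatase that switches off MAP kinases, was at 46.6, 37.4, 43.1 and 48.0 CPM in IR edit hearts and 28.9, 25.8 and 24.96 CPM in IR hearts, without overlap (log2 fold change 0.72 ± 0.128, adjusted p = 0.0102). Sik1, a salt-inducible kinase named after its values were seen, was at 59.6, 38.5, 70.8 and 66.8 CPM in IR edit hearts and 13.2, 14.6 and 17.2 CPM in IR hearts, again without overlap (log2 fold change 1.98 ± 0.195, adjusted p = 7.93e-05).

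Nr4a1, Fos, Fosl2, Klf4 and Sik1 passed in each of the 18 other fits made, including those without any 1 heart. Nr4a3 and Atf3 were lost without IR replicate 1 or 2, Klf2 also without IR edit replicates 2 and 4 together, and Dusp1 without IR replicate 2. Jun, Klf6 and Csrnp1 were lost in 8, 8 and 10 of the fits, among them those without IR edit replicates 2 and 4. The list held 8 risen members without these hearts and 6 with IR replicates 1 and 2 summed.

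**Figure D2:**
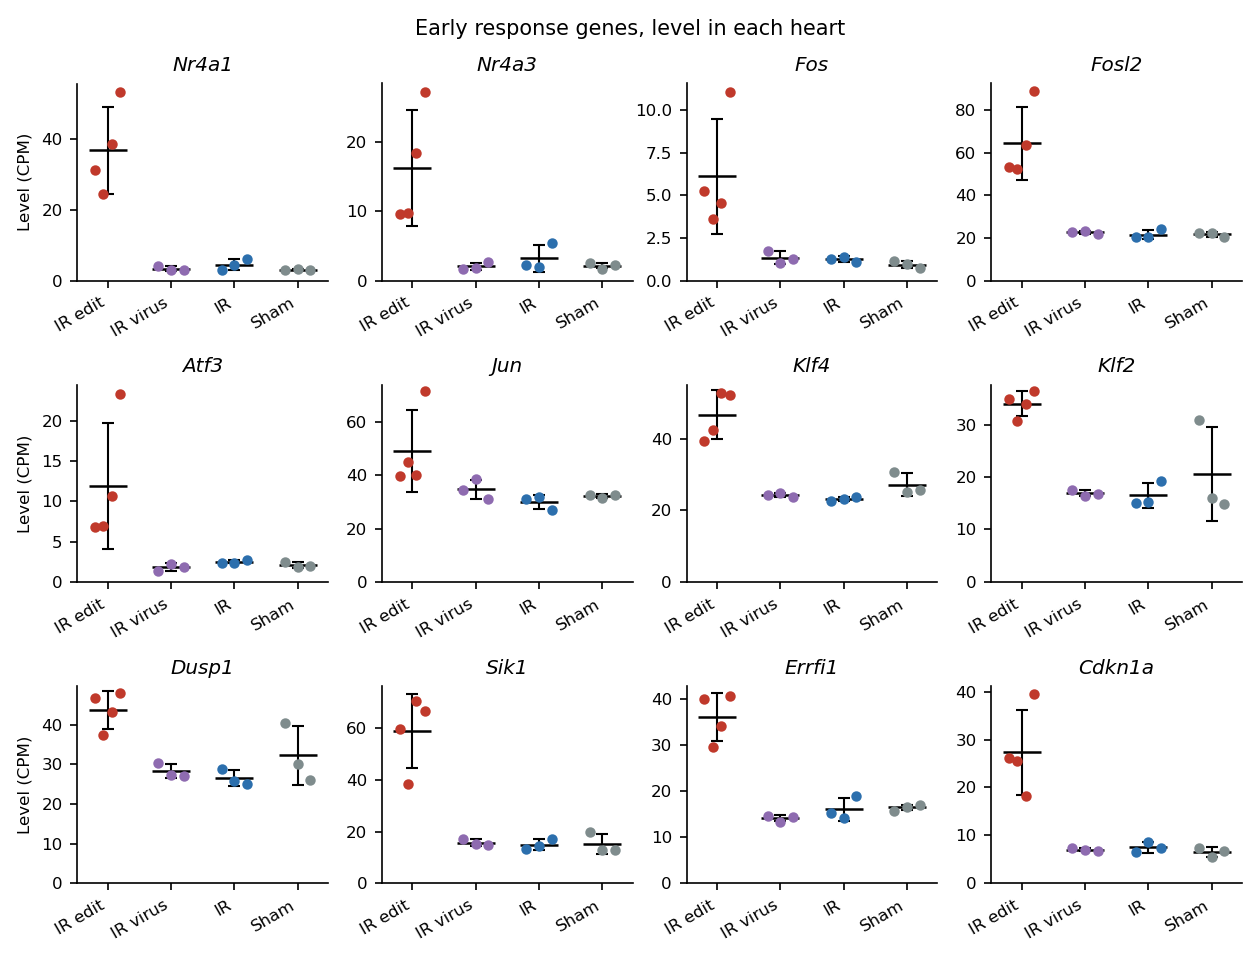
Level in CPM of 12 early-response and stress-regulated genes in each heart, by group, with the mean (long bar) and SD (whiskers). The IR edit hearts lie above the IR hearts in every panel, for Nr4a1 at 24.3 to 53.04 against 3.03 to 6.11 CPM, and the IR virus and Sham hearts lie near the IR hearts in most panels. For Klf2 and Dusp1, Sham replicate 1 lies within the IR edit range.

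Some stress-responsive genes outside that list rose too. Of 22 tested heat shock genes of the cytosol, 3 rose and 0 fell, and the list's median was 0.19. Hspa1a and Hspa1b encode near-identical inducible Hsp70 chaperones, so reads may have been split between them. Hspa1a was at 2.56, 1.79, 5.12 and 4.05 CPM in IR edit hearts and 0.693, 0.341 and 0.867 CPM in IR hearts (log2 fold change 2.40 ± 0.363, adjusted p = 0.00373). Hspa1b had a log2 fold change of 2.26 ± 0.409 (adjusted p = 0.0116). Dnajb1, the Hsp40 partner of Hsp70, was at 18.9, 14.6, 22.4 and 23.7 CPM in IR edit hearts and 10.3, 8.57 and 10.1 CPM in IR hearts (log2 fold change 1.04 ± 0.152, adjusted p = 0.00252). In all 3 genes each IR edit heart was above each IR heart, with replicate 2 the lowest of the IR edit hearts. Hspa1b was lost without IR replicate 1 or 2.

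Glucocorticoid-responsive genes, 19 of which were tested, had 5 risen and 0 fallen members and a median of 0.36. Dusp1 is one of them. Errfi1, a feedback inhibitor of the EGF receptor, was at 40.1, 29.6, 34.0 and 40.7 CPM in IR edit hearts and 15.2, 14.1 and 18.8 CPM in IR hearts (log2 fold change 1.17 ± 0.119, adjusted p = 9.82e-05). Cdkn1a, which encodes the cell cycle inhibitor p21 and belongs to the p53 list too, was at 26.2, 25.5, 18.3 and 39.4 CPM in IR edit hearts and 6.41, 8.70 and 7.32 CPM in IR hearts (log2 fold change 1.87 ± 0.205, adjusted p = 0.000183). Ddit4, an inhibitor of the growth kinase mTOR, was at 41.4, 36.2, 42.9 and 43.2 CPM in IR edit hearts and 10.045, 10.3 and 8.88 CPM in IR hearts (log2 fold change 2.07 ± 0.395, adjusted p = 0.0151). For these genes the groups stood clear of each other. Ddit4 was also at 39.7 CPM in Sham replicate 1, against 10.9 and 7.33 CPM in the other Sham hearts, so a single uninjected heart reached the IR edit level. Sgk1, a kinase that regulates ion transport, rose by 0.83 ± 0.189 on the log2 scale (adjusted p = 0.0422). Sham replicate 1 lay within the IR edit range for Sgk1 too, at 63.9 CPM against 57.6 to 74.2 CPM. The same held for Klf2 (30.9 against 30.7 to 36.3 CPM), Dusp1 (40.5 against 37.4 to 48.0 CPM) and Csrnp1 (7.40 against 7.14 to 11.7 CPM). The best-known direct targets of the receptor in this list, Fkbp5 and Tsc22d3, named after their values were seen, had log2 fold changes of 0.36 (adjusted p = 0.699) and 0.82 (adjusted p = 0.0717). Ddit4 was lost without any 1 of the IR hearts, and Sgk1 without IR replicate 1 or 2 or IR edit replicate 1, 2 or 4.

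Of 24 tested p53 targets and DNA damage genes, 2 rose (Cdkn1a and Ddit4) and 2 fell, and the median was 0.08. Plk2, a stress-induced kinase, was at 28.9, 33.8, 27.1 and 35.9 CPM in IR edit hearts and 47.9, 48.2 and 40.8 CPM in IR hearts (log2 fold change -0.54 ± 0.108, adjusted p = 0.0210). Gadd45a, which acts in growth arrest, was at 7.72, 6.05, 7.97 and 5.70 CPM in IR edit hearts and 11.1, 12.8 and 9.27 CPM in IR hearts (log2 fold change -0.69 ± 0.152, adjusted p = 0.0352). Both fell without overlap, and both were lost without IR replicate 1 or 2, Gadd45a also without IR edit replicate 2 or 4. Of 32 tested genes of the unfolded protein and integrated stress response, 0 passed in edgeR, 1 in DESeq2, 7 in limma and 6 at an unadjusted p under 0.05. Over all genes, DESeq2 called 443 of 15686, limma called 1705 of 15690 and 14.5% had an unadjusted p under 0.05. Atf4, the central factor of this list, was nearest to passing, with a log2 fold change of 0.49 (adjusted p = 0.0515).

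The daily clock differed in both of its arms. Of 19 tested clock and clock output genes, 3 rose and 6 fell (47.4% against 1.42% of all genes), the median was -0.57, and in 17 of the 19 the IR edit and IR hearts did not overlap. This list too was chosen with earlier results of these data known, so its share is descriptive. On the activating side, Arntl, which encodes BMAL1, was at 27.3, 27.7, 22.6 and 26.8 CPM in IR edit hearts and 6.23, 7.59 and 4.85 CPM in IR hearts (log2 fold change 2.07 ± 0.468, adjusted p = 0.0421). Npas2, a partner of BMAL1 that can take the place of Clock, was at 7.94, 9.59, 6.57 and 10.2 CPM in IR edit hearts and 2.77, 2.90 and 1.52 CPM in IR hearts (log2 fold change 1.84 ± 0.246, adjusted p = 0.00140). Nfil3, a repressor of D-box genes and not part of the activating side, rose too. It was at 9.50, 7.93, 9.16 and 10.6 CPM in IR edit hearts and 4.89, 4.99 and 4.72 CPM in IR hearts (log2 fold change 0.93 ± 0.132, adjusted p = 0.00209). In all 3 the lowest IR edit heart was above the highest IR heart. Arntl was at 1.43 to 6.27 CPM in IR virus hearts and 0.755 to 8.33 CPM in Sham hearts, a wide spread within those groups, and its call was lost in 11 of the 18 other fits, each fit without 1 IR heart among them.

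On the repressing and output side, Dbp, a D-box activator whose transcript follows the clock closely, was at 7.09, 5.02, 7.66 and 4.01 CPM in IR edit hearts and 38.1, 35.7 and 30.03 CPM in IR hearts. It was 5.84-fold lower in IR edit hearts, with no overlap (log2 fold change -2.55 ± 0.185), and had the smallest adjusted p of all named genes, 9.22e-06. Per3, a period gene, was at 13.4, 12.5, 19.975 and 12.0 CPM in IR edit hearts and 43.9, 50.9 and 46.1 CPM in IR hearts (log2 fold change -1.71 ± 0.195, adjusted p = 0.000268). Ciart, a repressor of BMAL1 with Clock, was at 2.34, 2.60, 2.48 and 2.31 CPM in IR edit hearts and 7.23, 8.19 and 6.11 CPM in IR hearts (log2 fold change -1.56 ± 0.256, adjusted p = 0.00624). All 4 IR edit hearts were low for these 3 genes. Tef, another D-box activator, was at 77.3, 75.2, 94.8 and 70.2 CPM in IR edit hearts and 156, 157 and 167 CPM in IR hearts (log2 fold change -1.01 ± 0.170, adjusted p = 0.00674). Nr1d2, a nuclear receptor that represses Arntl, was at 99.0, 91.2, 133 and 85.5 CPM in IR edit hearts and 190, 195 and 195 CPM in IR hearts (log2 fold change -0.92 ± 0.116, adjusted p = 0.000778). Bhlhe41, a further repressor, was at 18.1, 23.6, 21.9 and 26.1 CPM in IR edit hearts and 39.4, 38.5 and 33.8 CPM in IR hearts (log2 fold change -0.73 ± 0.106, adjusted p = 0.00247). These groups did not overlap either.

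Dbp, Per3, Nr1d2, Bhlhe41, Npas2 and Nfil3 passed in each of the 18 other fits, and Ciart and Tef were lost only without IR edit replicates 2 and 4 together (adjusted p = 0.0589 and 0.0852). Dbp overlaps Sphk2 on the opposite strand and Arntl overlaps Gm45355, and whether the counting used strand is not given in the sources used here. Of the other 10 clock genes, named after their values were seen, Per2 was at 5.05, 5.20, 8.69 and 6.47 CPM in IR edit hearts and 14.5, 15.6 and 18.6 CPM in IR hearts, without overlap (log2 fold change -1.37, adjusted p = 0.0768). Per1 had a log2 fold change of 0.86 (adjusted p = 0.198), Clock one of 0.52 (adjusted p = 0.127) and Nr1d1 one of -0.64 (adjusted p = 0.217). Hlf, a further D-box activator, had a log2 fold change of -1.08 (adjusted p = 0.0543) and Cry2 one of -0.57 (adjusted p = 0.0615). None of these passed. In Sham replicate 1, Per1 was at 43.5 CPM and Per2 at 42.7 CPM, against 14.6 to 19.4 CPM and 14.3 to 19.9 CPM in the other Sham hearts, and Arntl was at 0.755 CPM there. IR virus replicate 2, an injured heart, had Per1 at 31.5 CPM, Per2 at 32.8 CPM and Arntl at 1.43 CPM. The other IR virus hearts had Per1 at 15.7 to 21.9 CPM and Per2 at 14.0 to 14.1 CPM. The clock genes thus also differed between hearts of one group.

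**Figure D3:**
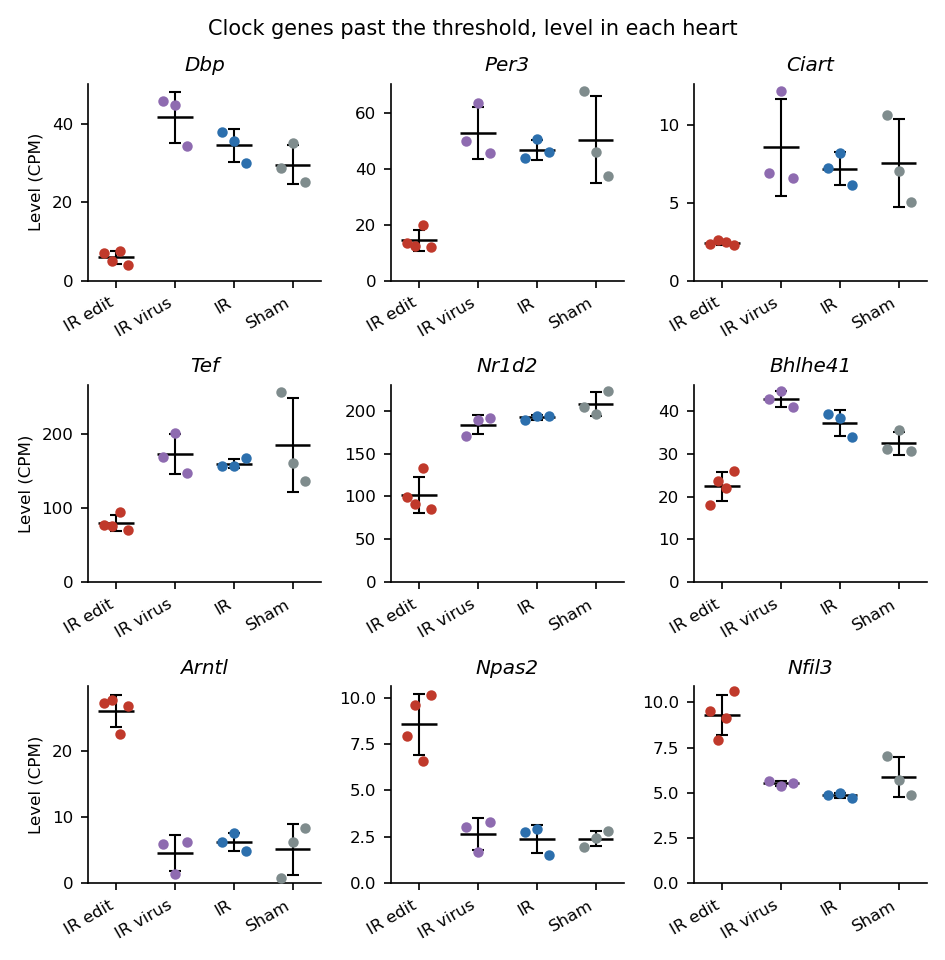
Level in CPM of the 9 clock genes past the threshold in each heart, by group, with the mean (long bar) and SD (whiskers). Dbp, Per3, Ciart, Tef, Nr1d2 and Bhlhe41 are low and Arntl, Npas2 and Nfil3 high in all 4 IR edit hearts, with Dbp at 4.01 to 7.66 against 30.03 to 38.1 CPM in IR.

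Promoters of some of these genes are shown because the clock acts through short DNA motifs. They run from 250 bases before to 50 after a gene's start, 5′ to 3′ on the gene's strand, from RefSeq on GRCm38.p6, with motifs in capitals. The motifs searched on both strands were the E-box CACGTG, bound by BMAL1 with its partners, the D-box TTATGNAA, bound by Dbp, Tef, Hlf and Nfil3, and the cAMP response element TGACGTCA; none of the matches shown overlaps another. Per3 held 2 D-boxes, Ciart 3 E-boxes and Bhlhe41 1 E-box.
Per3, chr4:151044616-151044915, minus strand: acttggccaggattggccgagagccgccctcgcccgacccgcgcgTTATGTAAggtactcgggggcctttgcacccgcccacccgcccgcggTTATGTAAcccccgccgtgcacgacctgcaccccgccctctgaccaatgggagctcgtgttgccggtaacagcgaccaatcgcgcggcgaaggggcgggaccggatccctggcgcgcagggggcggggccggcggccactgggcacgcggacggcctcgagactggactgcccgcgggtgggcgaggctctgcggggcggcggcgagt
Ciart, chr3:95882179-95882478, minus strand: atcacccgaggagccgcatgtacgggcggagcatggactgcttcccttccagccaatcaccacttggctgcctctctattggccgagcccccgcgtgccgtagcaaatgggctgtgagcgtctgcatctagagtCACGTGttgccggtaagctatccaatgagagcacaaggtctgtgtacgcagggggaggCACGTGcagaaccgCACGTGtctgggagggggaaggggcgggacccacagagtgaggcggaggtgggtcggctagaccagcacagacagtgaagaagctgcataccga
Bhlhe41, chr6:145865371-145865670, minus strand: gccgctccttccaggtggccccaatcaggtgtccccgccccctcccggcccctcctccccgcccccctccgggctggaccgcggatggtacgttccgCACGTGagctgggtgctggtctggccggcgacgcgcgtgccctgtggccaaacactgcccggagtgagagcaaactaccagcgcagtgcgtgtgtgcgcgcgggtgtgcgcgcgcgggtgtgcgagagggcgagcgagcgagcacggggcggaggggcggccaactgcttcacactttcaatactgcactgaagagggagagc
Pnpla3 and Dusp1, which rose, each held 1 cAMP response element, with an E-box near it in Dusp1. Plk2, which fell, held 1 too, as did 1 of the promoters of Errfi1 and 1 of those of Rcan1, which rose.
Pnpla3, chr15:84167566-84167865, plus strand: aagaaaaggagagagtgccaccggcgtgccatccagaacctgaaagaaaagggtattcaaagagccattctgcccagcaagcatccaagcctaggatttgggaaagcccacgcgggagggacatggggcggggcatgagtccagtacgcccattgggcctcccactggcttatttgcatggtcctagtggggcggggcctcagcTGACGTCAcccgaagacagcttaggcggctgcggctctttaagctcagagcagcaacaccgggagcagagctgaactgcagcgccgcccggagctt
Dusp1, chr17:26508423-26508722, minus strand: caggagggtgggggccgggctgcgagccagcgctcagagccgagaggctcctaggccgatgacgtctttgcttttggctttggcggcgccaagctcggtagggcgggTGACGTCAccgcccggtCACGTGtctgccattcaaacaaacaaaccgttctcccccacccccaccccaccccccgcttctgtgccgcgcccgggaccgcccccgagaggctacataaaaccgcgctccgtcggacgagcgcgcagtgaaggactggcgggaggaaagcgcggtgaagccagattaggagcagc
Among the tested genes with a promoter in the table (10904 genes), 11.4% held an E-box, 2.53% a D-box and 3.45% a cAMP response element. The 83 risen genes with a promoter held them in 20.5%, 1.2% and 8.43% and the 70 fallen genes in 12.9%, 7.14% and 2.86%, and an E-box was held by 3 of the 6 fallen clock genes and 0 of the 3 risen ones. Dbp and Nr1d2, which fell, held none of these motifs. Over all 32851 promoters of the table the shares were 7.15%, 3.38% and 1.79%. A match describes these letters in this window and is not evidence of binding.

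The largest increases by fold included several genes with low levels in IR hearts. Pnpla3, a lipase-like protein of lipid droplets, was at 6.12, 9.05, 7.35 and 7.12 CPM in IR edit hearts and 0.953, 1.28 and 0.997 CPM in IR hearts (log2 fold change 2.77 ± 0.215, adjusted p = 1.19e-05). Lpar3, a receptor for lysophosphatidic acid, was at 5.23, 3.90, 3.83 and 3.96 CPM in IR edit hearts and 0.693, 0.725 and 0.433 CPM in IR hearts (log2 fold change 2.77 ± 0.258, adjusted p = 5.90e-05). These increases were even, as the highest IR edit heart was 1.48 times the lowest for Pnpla3 and 1.37 times for Lpar3, and both genes passed in all 18 other fits. Mylk2, the myosin light chain kinase of skeletal muscle, was at 1.63, 4.03, 0.828 and 4.57 CPM in IR edit hearts and 0.303, 0.256 and 0.260 CPM in IR hearts, where it rested on 7, 6 and 6 reads (log2 fold change 3.33 ± 0.544, adjusted p = 0.00624). Syndig1, a membrane protein of synapses, was at 1.30, 3.45, 1.40 and 4.81 CPM in IR edit hearts and 0.260, 0.341 and 0.477 CPM in IR hearts (log2 fold change 2.92 ± 0.519, adjusted p = 0.0102). In both, replicates 2 and 4 were the highest. No IR edit heart reached down to the IR range, which the rule for naming the largest increases required. Ano3, an anoctamin membrane protein, had a log2 fold change of 2.34 ± 0.534 (adjusted p = 0.0437) and was lost in 9 of the 18 other fits. Mylk2 was lost without IR replicate 2, and Syndig1 without IR replicate 1 or 2 and without IR edit replicates 2 and 4 together. Beside Mylk2, 0 of 6 tested skeletal muscle markers passed in edgeR, DESeq2 or limma, and 1 had an unadjusted p under 0.05. Their summed level was 727 to 1547 CPM in IR edit hearts and 855 to 871 CPM in IR hearts. It includes Acta1, at 352, 1036, 159 and 1056 CPM in IR edit hearts and 292, 302 and 278 CPM in IR hearts. The fast myosin Myh4 had 4 reads over the IR edit hearts and 5 over the IR hearts.

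Among 27 tested ion channels of the ventricle, 3 rose, 0 fell and the median was 0.06. Hcn4, the main subunit of pacemaker cells, was at 23.3, 24.2, 21.99 and 17.8 CPM in IR edit hearts and 9.53, 9.81 and 11.9 CPM in IR hearts (log2 fold change 1.06 ± 0.172, adjusted p = 0.00591). Kcna5, a potassium channel that helps end the action potential, was at 19.0, 20.6, 21.3 and 24.5 CPM in IR edit hearts and 8.18, 8.23 and 13.6 CPM in IR hearts (log2 fold change 1.09 ± 0.202, adjusted p = 0.0127). The groups did not overlap for Hcn4 or Kcna5. Both were lost without IR replicate 1 or 2, and Kcna5 also without IR edit replicates 2 and 4. Atrial markers, which a dissected heart can carry in differing amounts, had 0 of 12 tested members called in edgeR or DESeq2, 1 in limma and 6 at an unadjusted p under 0.05. Of the 12, 9 had a negative log2 fold change, and the median was -0.43. They summed to 554 to 1084 CPM in IR edit hearts and 711 to 757 CPM in IR hearts. This sum includes Nppa, at 98.9, 304, 55.9 and 422 CPM in IR edit hearts and 167, 133 and 74.4 CPM in IR hearts. Myl7, the atrial myosin light chain, was at 8.87, 21.6, 5.69 and 3.92 CPM in IR edit hearts and 25.3, 20.2 and 30.8 CPM in IR hearts, and its part in the channel levels was not tested.

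Genes of cardiac stress and the fetal programme were uneven among the IR edit hearts. Of 22 tested, 1 rose and 0 fell, and the median was 0.48. Rcan1, an inhibitor of calcineurin that calcineurin signalling induces, was at 124, 241, 90.9 and 250 CPM in IR edit hearts and 77.8, 73.4 and 80.3 CPM in IR hearts (log2 fold change 1.19 ± 0.269, adjusted p = 0.0411). Its call was lost without IR edit replicate 2 or 4 and without any 1 of the IR hearts, and without both of those IR edit hearts its log2 fold change was 0.48 (adjusted p = 0.263). It was also the only called gene of the 23 in the calcineurin, MEF2 and HDAC list, whose median was 0.01. Further members were named after their values were seen. Nppa, the atrial natriuretic peptide, was at 98.9, 304, 55.9 and 422 CPM in IR edit hearts and 167, 133 and 74.4 CPM in IR hearts, and did not pass (log2 fold change 0.82, adjusted p = 0.490). Myh7, the slow myosin heavy chain of the fetal ventricle, was at 523, 1952, 500 and 2002 CPM in IR edit hearts and 691, 651 and 319 CPM in IR hearts (log2 fold change 1.17, adjusted p = 0.217). Replicates 2 and 4 were far above the IR hearts, while replicates 1 and 3 lay within or near their range. Without replicates 2 and 4 the log2 fold changes of Nppa, Nppb, Myh7 and Acta1 turned to -0.69, -0.09, -0.11 and -0.18. Ankrd1, a stress sensor of the sarcomere, showed the same split, at 3083, 6313, 2649 and 7536 CPM in IR edit hearts and 2775, 2733 and 2506 CPM in IR hearts (adjusted p = 0.154). The median ratio of the highest to the lowest IR edit heart was 2.45 over this list, against 1.31 over all genes tested. The same ratio among IR hearts was 1.17 and 1.19. It covers 3 IR hearts against 4 IR edit hearts, and such a ratio tends to grow with the number of hearts. IR replicates 1 and 2 were also unusually close to each other.

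**Figure D4:**
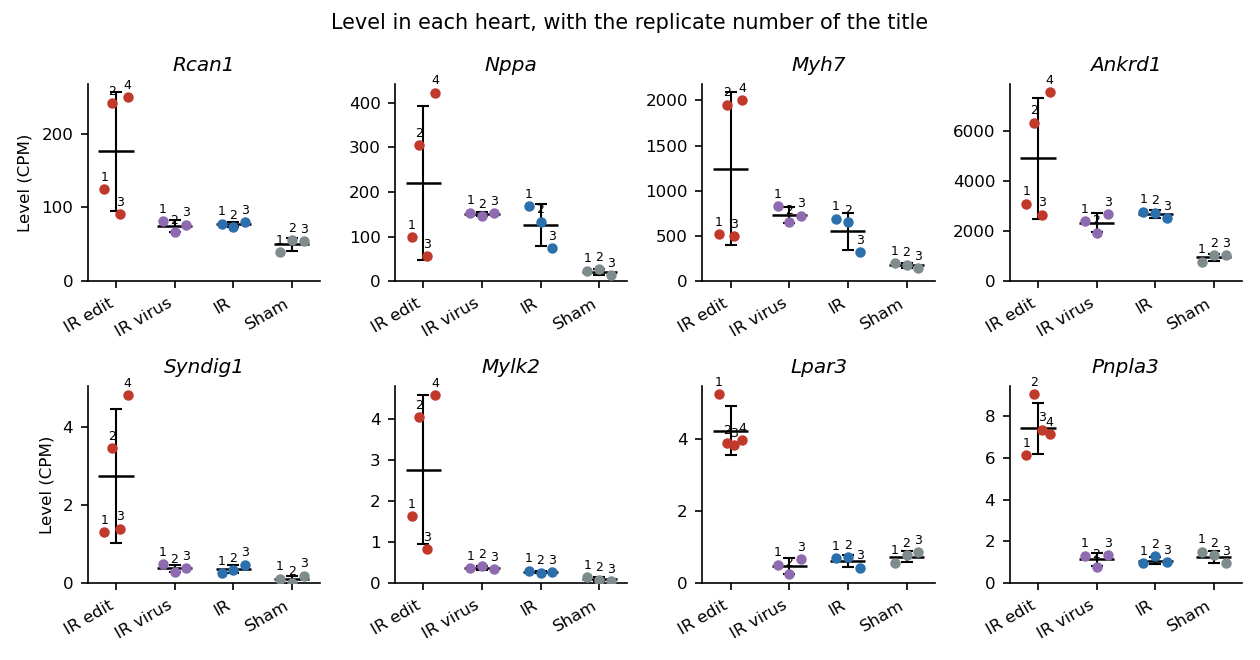
Level in CPM in each heart, by group, with the replicate number of the title at each point and the mean (long bar) and SD (whiskers), for 4 cardiac stress genes and 4 of the genes with the largest increases. IR edit replicates 2 and 4 stand above replicates 1 and 3 for Rcan1, Nppa, Myh7, Ankrd1, Syndig1 and Mylk2, while Lpar3 and Pnpla3 are even across the 4 hearts.

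Adrenergic, endothelin and angiotensin genes had 1 of 24 called, Pde4b, a phosphodiesterase that breaks down cAMP. It was at 48.1, 51.6, 52.1 and 45.9 CPM in IR edit hearts and 40.007, 38.3 and 39.0 CPM in IR hearts (log2 fold change 0.34 ± 0.0700, adjusted p = 0.0266), without overlap, and was lost whichever of the 3 IR hearts was left out and without IR edit replicate 2. Mylk4, a myosin light chain kinase family member named after its values were seen, fell without overlap, at 193, 128, 194 and 119 CPM in IR edit hearts and 312, 311 and 395 CPM in IR hearts (log2 fold change -1.10 ± 0.157, adjusted p = 0.00227), and passed in all 18 other fits. Of 26 calcium handling and contraction genes, 0 passed in edgeR or DESeq2, 3 passed in limma and 5 had an unadjusted p under 0.05. The member with the smallest p was Casq1, a calcium store protein of fast skeletal muscle (log2 fold change 0.87, adjusted p = 0.114).

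Few metabolic genes passed. Of 39 tested genes of fatty acid uptake and oxidation, 2 fell and 0 rose. In this list 36 had a negative log2 fold change and the median was -0.15. Its summed level was 17762.5, 16658.1, 21118.5 and 16577.3 CPM in IR edit replicates 1 to 4. The IR hearts had 20516.4 to 21150.6 CPM, so IR edit replicate 3 lay within their range. Ucp3, a mitochondrial uncoupling protein of muscle, was at 25.2, 12.1, 24.9 and 14.7 CPM in IR edit hearts and 56.0, 56.4 and 40.1 CPM in IR hearts (log2 fold change -1.40 ± 0.261, adjusted p = 0.0132). Cpt1a, a carnitine palmitoyltransferase that admits fatty acids to mitochondria, was at 48.0, 43.2, 50.2 and 42.2 CPM in IR edit hearts and 64.7, 62.3 and 51.0 CPM in IR hearts (log2 fold change -0.37 ± 0.0875, adjusted p = 0.0499). The hearts did not overlap for either gene, and replicates 2 and 4 were the lowest IR edit hearts. Cpt1a was lost in 12 of the 18 other fits, and Ucp3 without IR replicate 1 or 2 and without IR edit replicates 2 and 4. Of 25 glycolysis genes 1 fell: Pfkfb3, which makes the main activator of phosphofructokinase, at 9.16, 7.80, 8.43 and 9.10 CPM in IR edit hearts and 15.1, 14.9 and 17.8 CPM in IR hearts (log2 fold change -0.88 ± 0.122, adjusted p = 0.00174). It passed in every other fit. In edgeR and in DESeq2, 0 passed among 26 TCA cycle genes (median -0.09), 53 nuclear-encoded respiratory chain genes (median -0.04) and 13 mitochondrially encoded genes (median -0.09), where limma called 4, 1 and 0 and 3, 0 and 0 had an unadjusted p under 0.05. Adipocyte markers had 0 of 8 tested members called in edgeR, 2 in DESeq2, 5 in limma and 2 at an unadjusted p under 0.05, and summed to 478 to 557 CPM in IR edit hearts and 573 to 620 CPM in IR hearts. Adipoq, their defining secreted product, was at 0.482, 0, 0.0517 and 0 CPM in IR edit hearts and 0.346, 0.256 and 0.303 CPM in IR hearts, and the part of fat tissue in these levels was not tested. Klhl38, a muscle gene of the protein turnover list, was the 1 called of 17 there (log2 fold change -0.68 ± 0.149, adjusted p = 0.0343).

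Several genes of monocytes, macrophages and inflammation were lower in IR edit hearts. In bulk tissue, fewer cells of a type and less RNA per cell cannot be told apart. Of 26 tested macrophage and monocyte genes, 2 fell and 0 rose, and the median was -0.01. Ccr2, the chemokine receptor of recruited monocytes, was at 4.04, 4.97, 3.16 and 3.20 CPM in IR edit hearts and 11.04, 11.9 and 6.11 CPM in IR hearts (log2 fold change -1.33 ± 0.249, adjusted p = 0.0136). Gpnmb, a glycoprotein of lipid-laden macrophages, was at 1.15, 2.15, 1.35 and 1.54 CPM in IR edit hearts and 4.98, 4.99 and 2.56 CPM in IR hearts (log2 fold change -1.44 ± 0.282, adjusted p = 0.0187). In both genes IR replicate 3 was the lowest of its group and still above each IR edit heart. The general macrophage markers Adgre1 and Csf1r, named after their values were seen, had log2 fold changes of 0.12 (adjusted p = 0.745) and 0.34 (adjusted p = 0.404). Mmp12, the macrophage elastase, was at 0.445, 0.358, 0.362 and 0.324 CPM in IR edit hearts and 1.91, 1.58 and 0.780 CPM in IR hearts (log2 fold change -1.91 ± 0.333, adjusted p = 0.00922). Il2ra, a chain of the interleukin 2 receptor, fell by 1.28 ± 0.233 (adjusted p = 0.0121). C3ar1, the receptor for complement C3a, fell by 0.75 ± 0.151 (adjusted p = 0.0227) as the 1 called of 14 complement genes.

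Cytokine, chemokine and NF-kB genes had 2 of 24 members called, both lower, and a median of -0.26. Cxcl5, a chemokine for neutrophils, rested on few reads, with 3, 2, 1 and 1 in IR edit hearts and 23, 34 and 12 in IR hearts (log2 fold change -3.63 ± 0.563, adjusted p = 0.00421). Vcam1, an adhesion molecule that captures leukocytes, was at 24.4, 21.1, 26.0 and 24.8 CPM in IR edit hearts and 33.3, 34.7 and 30.4 CPM in IR hearts (log2 fold change -0.45 ± 0.0985, adjusted p = 0.0363). Both were lower in every IR edit heart. Interferon-stimulated genes had 1 of 34 called, Gbp4, a guanylate-binding protein (log2 fold change -1.01 ± 0.215, adjusted p = 0.0293), with 28 members negative and a median of -0.19. The list summed to 475, 366, 338 and 345 CPM in IR edit replicates 1 to 4 and 447 to 495 CPM in IR hearts, so replicate 1 lay within the IR range. Genes of MHC and antigen presentation had 0 of 23 called in edgeR, 2 in DESeq2, 3 in limma and 5 at an unadjusted p under 0.05, with 21 negative and a median of -0.21. They summed to 831, 640, 696 and 639 CPM in IR edit replicates 1 to 4 and 781 to 828 CPM in IR hearts. IR edit replicate 1 was thus not low. The peptide transporter Tap1 had the smallest p (adjusted p = 0.0643). Without IR replicate 1 or 2, Ccr2, Gpnmb, Mmp12, C3ar1, Vcam1 and Gbp4 were lost. Without IR edit replicates 2 and 4 together, each of these but Gpnmb was lost, as were Cxcl5 and Il2ra. Single further hearts whose removal ended a call were IR replicate 3 for Il2ra and Gbp4, IR edit replicate 4 for C3ar1, replicates 2 and 4 for Gbp4 and replicates 1, 2 and 4 for Vcam1.

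In the lists of scar and matrix genes a few members fell. Of 47 tested activated fibroblast and matricellular genes, 3 fell, 0 rose and the median was -0.02. Thbs2, a matricellular thrombospondin, was at 25.7, 15.1, 24.5 and 16.3 CPM in IR edit hearts and 42.6, 39.7 and 36.3 CPM in IR hearts (log2 fold change -0.95 ± 0.154, adjusted p = 0.00589), and it passed in all 18 other fits. Cilp2, a cartilage-type matrix protein, was at 0.260, 0.358, 0.103 and 0.121 CPM in IR edit hearts and 0.823, 1.19 and 0.997 CPM in IR hearts (log2 fold change -2.21 ± 0.397, adjusted p = 0.0110). Cthrc1, a secreted protein of activated fibroblasts, had 1, 6, 3 and 10 reads in IR edit hearts and 30, 16 and 17 reads in IR hearts (log2 fold change -2.05 ± 0.439, adjusted p = 0.0317). None of these overlapped between the groups. Cilp2 was lost without IR replicate 2 and without IR edit replicates 2 and 4 together, and Cthrc1 without IR replicate 1 or 2 or IR edit replicate 2. Of 30 collagen and crosslinking genes 0 passed in edgeR, 4 in DESeq2, 9 in limma and 9 at an unadjusted p under 0.05; the median was 0.16, and Col4a4, a basement membrane chain, had the smallest p (adjusted p = 0.0582). Without IR edit replicates 2 and 4, the fibroblast list held 5 fallen members and a median of -0.40. Emcn, an endothelial surface protein, was the 1 called of 24 endothelial genes, at 40.6, 35.8, 37.2 and 36.8 CPM in IR edit hearts and 48.1, 48.4 and 48.3 CPM in IR hearts (log2 fold change -0.36 ± 0.0726, adjusted p = 0.0225), and it was lost in 8 of the 18 other fits. Rp1, a microtubule-associated protein among the 10 largest decreases, fell by 1.32 ± 0.287 on the log2 scale (adjusted p = 0.0328) and was lost in 9.

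**Figure D5:**
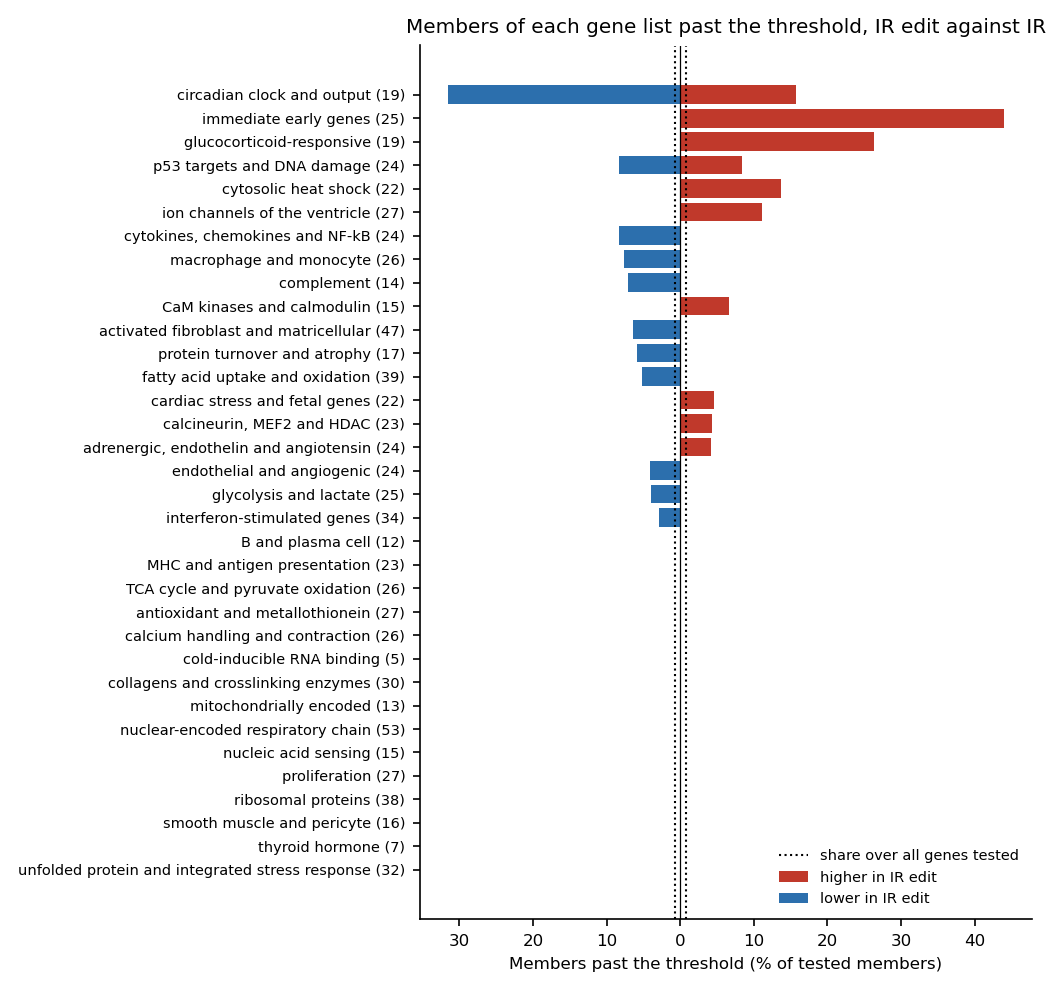
Share of the tested members of each gene list (number in brackets) that passed in IR edit against IR, higher to the right in red and lower to the left in blue; the dotted lines mark 0.784% and 0.637%, the shares over all genes tested. The clock list reaches furthest with calls in both directions, and 44% of the early-response list is higher. The lists were chosen with earlier results of these data known.

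The IR virus hearts show where these genes stand after a control injection. The comparisons of IR edit with IR virus and of IR edit with IR share the 4 IR edit hearts, so they are not independent. IR edit against IR virus gave 317 called genes (2.02% of 15690; 151 higher, 166 lower). IR virus against IR gave 0 called genes in edgeR, DESeq2 and limma, and 603 genes (3.84%) at an unadjusted p under 0.05. Without IR virus replicate 3, which lay close to IR replicates 1 and 2, IR virus against IR again gave 0 in edgeR and IR edit against IR virus gave 114; the count of IR edit against IR virus was 96 without IR virus replicate 1 and 122 without replicate 2. Nr4a1 was at 4.10, 2.98 and 3.07 CPM in IR virus hearts, within or just below the IR range, and its log2 fold change was 3.44 in IR edit against IR virus (adjusted p = 1.04e-05) and -0.41 in IR virus against IR (adjusted p = 0.962). Dbp was at 46.1, 44.9 and 34.4 CPM in IR virus hearts, with log2 fold changes of -2.82 (adjusted p = 2.13e-06) and 0.27 (adjusted p = 0.962) in these comparisons. For both genes the IR edit hearts stood apart from all other injured hearts. Some calls against IR stood lower or were lost against IR virus. Emcn was at 40.04, 36.2 and 43.8 CPM in IR virus hearts, and its log2 fold change in IR edit against IR virus was -0.09 (adjusted p = 0.600). Csrnp1 was at 6.57, 6.05 and 3.83 CPM there (log2 fold change 0.67, adjusted p = 0.177) and Gbp4 at 38.6, 34.99 and 42.0 CPM (log2 fold change -0.59, adjusted p = 0.205). Jun, Klhl38, Il2ra, Ano3 and Cthrc1 did not pass against IR virus either (adjusted p = 0.150, 0.133, 0.0582, 0.0744 and 0.0820). Whether their difference from IR exceeds their difference from IR virus is the comparison of IR virus with IR. None of them passed there (adjusted p between 0.962 and 0.964), which does not show equal levels. Each of these genes differed between IR virus and IR in the same direction as between IR edit and IR. They were picked for passing against IR and not against IR virus, a choice that by itself favours this shared direction. It is therefore no sign of an effect of the injection. For Emcn the log2 fold change of IR virus against IR was -0.27 ± 0.0779 (SE), beside -0.36 in IR edit against IR. In IR virus against IR it was -0.43 ± 0.229 for Gbp4 and 0.36 ± 0.258 for Csrnp1.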

How the data were processed

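RNA of 13 mouse hearts was sequenced, and the 4 IR edit, 3 IR, 3 IR virus and 3 Sham libraries were grouped by their titles. The authors deposited 1 file per library with the whole-number count of reads for each gene symbol, not normalized. Build mm10 and the programs featureCounts 1.6.2, HISAT2 2.1.0, Trimmomatic 0.39 and FastQC 0.11.8 are named in the submitters' processing notes. Neither strandedness nor annotation is given in the sources used here. GENCODE M21 held 49721 of the 53278 symbols and 15389 of the 15690 genes tested.

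Counts were scaled with TMM, filtered with filterByExpr and fitted in edgeR 4.0.16 under R 4.3.3, with a mean per group over all 13 libraries (9 residual degrees of freedom). IR edit against IR was tested with edgeR's quasi-likelihood test, Benjamini-Hochberg adjusted over all genes tested, at a threshold of 0.05. A standard error (SE) is the absolute log2 fold change over the square root of F. Levels are TMM-scaled CPM, not corrected for gene length, and are not compared between genes. The pipeline was tested on simulated data.

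The members of each list and the lists themselves were chosen with earlier results of these data known. The rule named Camk2d and the 10 largest increases and 10 largest decreases among called genes with non-overlapping groups and a mean of at least 1 CPM in the higher group (symbols without a gene name passed over). Of the 43 lists, it left out the 8 marker lists. From each other list it named every called member or, where none was called, the member with the smallest p. Other genes are said to have been named after their values were seen. Some genes that the rule covers are not reported here. Alternatives were other size factors, other filters, a robust dispersion, the replicate number as a block, leaving out the mitochondrial genome or single hearts, a fit of only the compared groups, DESeq2 1.42.0 and limma 3.58.1 with sample weights.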

Additional observations from a re-analysis of the deposited data

Results flagged for a closer look

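Each of 92 values was checked for a single IR edit heart far from the other 3, a check that flags about 1 in 20 groups by chance, and 4 were picked out. For Lpar3, IR edit replicate 1 was at 5.23 CPM, above the 3.83 to 3.96 CPM of the other IR edit hearts, all of which were above the IR hearts. For Jun, IR edit replicate 4 was at 71.8 CPM, above 39.7 to 44.9 CPM in the others. For Arntl, IR edit replicate 3 was at 22.6 CPM, below 26.8 to 27.7 CPM in the others. For mt-Co3, a transcript of the mitochondrial genome, IR edit replicate 1 was at 85.5 CPM, above 17.2 to 28.2 CPM in the others.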

How the results depend on the processing

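The 223 genes of IR edit against IR became 1021 without a filter on low counts, 443 with DESeq2, 1705 with limma and sample weights, 78 without IR edit replicates 2 and 4 (66 of them shared with the 223) and 75 with IR replicates 1 and 2 summed, a choice made after seeing the data (all 75 shared); with 1 heart left out they ran from 59 to 489. The other scalings and filters, leaving out the mitochondrial genome, the robust dispersion and the fit of only the compared groups gave 168 to 232. The 168 came from the fit of only the compared groups, and 133 of them were shared with the 223. A similar count there thus does not mean the same genes. The 317 genes of IR edit against IR virus became 1018, 517, 1105 and 90 under the first 4 of these settings, and 96 to 477 with 1 heart left out. IR virus against IR went to 37 without a filter and ran from 0 to 1 with 1 heart left out. The difference in mitochondrial share was -3.59 to -1.04 percentage points with 1 heart left out. Same-numbered hearts of IR edit and IR did not deviate together (r = -0.0338, 0.0579 and 0.12), and with the replicate number as a block, where IR edit replicate 4 has no partner, the counts were 122, 159 and 0. Of 57 genes that the rule named and that passed, 18 passed under all 18 other settings and 0 turned direction. Genes that had not passed turned to -0.018 without IR edit replicate 1 (mt-Co3, up to 1.05 with another heart left out) and to -0.69 (Nppa), -0.090 (Nppb), -0.11 (Myh7) and -0.18 (Acta1) without IR edit replicates 2 and 4. The cause of these shifts was not tested. With 3 and 4 hearts and no batch, dose or harvest time in the labels, small changes and low genes such as Cxcl5 rest on few reads or few hearts, and counting error is only part of their error.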

Other observations

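Irs2, Txnip and Ctla4, which belong to none of the lists and were named after their values were seen, also differed. Irs2, which relays insulin signals, was at 18.1, 12.8, 16.7 and 31.6 CPM in IR edit hearts and 8.57, 8.06 and 10.7 CPM in IR hearts (log2 fold change 1.12 ± 0.262, adjusted p = 0.0479 from edgeR's quasi-likelihood test, higher in 4 of 4 hearts). Txnip, an inhibitor of glucose uptake, was at 199, 213, 249 and 375 CPM in IR edit hearts and 556, 545 and 471 CPM in IR hearts (log2 fold change -1.02 ± 0.233, adjusted p = 0.0448, lower in 4 of 4). Ctla4, an inhibitory receptor of T cells, was at 2.04, 1.66, 2.59 and 1.29 CPM in IR edit hearts and 3.38, 3.07 and 3.99 CPM in IR hearts (log2 fold change -0.89 ± 0.204, adjusted p = 0.0453). The groups did not overlap, and the 3 genes were lost in 9, 8 and 10 of the 18 other fits. Against IR virus, Irs2 passed (adjusted p = 0.0424), and Txnip and Ctla4 did not (adjusted p = 0.0995 and 0.172).

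Of 27 tested proliferation genes, 0 passed in edgeR or DESeq2, 3 passed in limma and 6 had an unadjusted p under 0.05, and the median log2 fold change was 0.37. Tpx2, a spindle protein, had the smallest p, at 3.45, 4.08, 1.76 and 4.05 CPM in IR edit hearts and 1.69, 2.05 and 1.99 CPM in IR hearts (adjusted p = 0.182). Its groups overlapped through IR edit replicate 3. Of 38 ribosomal protein genes 0 passed in edgeR, DESeq2 or limma, with 0 at an unadjusted p under 0.05. Cold-inducible RNA-binding genes had 0 of 5 called in edgeR, 1 in DESeq2, 3 in limma and 3 at an unadjusted p under 0.05, with Cirbp at 22.5, 19.6, 21.5 and 19.5 CPM in IR edit hearts and 40.05, 38.9 and 21.1 CPM in IR hearts (adjusted p = 0.0590).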
